A study of Homo sapiens with 9 samples.

Results

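The CLCN5 intron cluster is a group of 8 miRNA hairpins, from MIR532 to MIR502, carried by a transcript of CLCN5, the X-linked gene of a chloride/proton exchanger. The 9 mature miRNAs described here are hsa-miR-532-5p, hsa-miR-532-3p, hsa-miR-188-5p, hsa-miR-500a-3p, hsa-miR-362-5p, hsa-miR-362-3p, hsa-miR-501-3p, hsa-miR-660-5p and hsa-miR-502-3p, written below without the species prefix. They were chosen by name as arms of this cluster and are 9 of the 2652 mature miRNA names in the count table, each with a single locus. Another 7 arms of the same hairpins were measured beside them. Their levels were read in ES-2, an established ovarian cancer cell line, in a trap for miRNAs that associate with the 3'UTR of PD-L1, the immune checkpoint ligand encoded by CD274.

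All 9 small RNA libraries came from wild-type, untreated ES-2 cells, in 3 groups of 3 replicates. Input libraries held RNA of the lysate. MS2 control libraries held RNA that a bait of MS2 loops without a 3'UTR retained on the resin (the background of the trap), and in PD-L1 3'UTR libraries the bait carried that 3'UTR next to its loops. The groups are called input, MS2 bait and PD-L1 bait below. By the study's methods the baits were used in unequal amounts, and what the bait's sequence and its amount each contribute cannot be told apart. The study describes its experiments in general as biologically replicated, while the labels of these libraries give replicate numbers alone, and p values measure the spread between these samples.

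A miRNA hairpin is cut from its host transcript and then diced into a 5p and a 3p arm, of which usually one is loaded into an Argonaute protein as the guide while the other is degraded. The guide finds target RNAs mainly by pairing of its seed, bases 2 to 8, with the 3'UTR. Members of a cluster are transcribed together, but each arm brings its own seed. A trap on one 3'UTR therefore meets the arms of a single transcript with unlike pairing rules.

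Mature sequences are shown because the members differ in seed while several are close copies elsewhere, and both bear on the values. They were taken from RefSeq (GRCh38.p14), which matched 8 of the 9 members and 7 of the 7 other arms. miR-660-5p is given by name only. Capitals mark the seed.
miR-532-5p: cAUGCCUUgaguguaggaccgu
miR-532-3p: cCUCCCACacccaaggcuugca
miR-188-5p: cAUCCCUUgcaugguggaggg
miR-500a-3p: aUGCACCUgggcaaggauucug
miR-501-3p: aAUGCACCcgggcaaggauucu
miR-502-3p: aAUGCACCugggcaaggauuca
miR-362-3p: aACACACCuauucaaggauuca
miR-362-5p: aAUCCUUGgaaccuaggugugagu

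The hairpins lie on the forward strand of chromosome X over 11536 bases, in the order MIR532, MIR188, MIR500A, MIR362, MIR501, MIR500B, MIR660 and MIR502. On GRCh38.p14 the cluster runs from the start of MIR532 at 50003148 to the end of MIR502 at 50014683, within CLCN5 (49922596 to 50099230). In a second annotation, GENCODE on GRCh37, 0 of the 8 hairpins overlapped a CLCN5 exon, which places them in intronic sequence. miR-532-5p (chrX:50003167-50003188) and miR-532-3p (chrX:50003204-50003225) are the arms of the first hairpin, and miR-502-3p (chrX:50014649-50014670) leaves the last.

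Of the members with a sequence, only miR-501-3p and miR-502-3p had the same seed, AUGCACC. The seed of miR-500a-3p, UGCACCU, is that seed moved by 1 base. These 3 miRNAs share a run of 12 bases, GGGCAAGGAUUC, and are 2 to 3 edits apart, so the split of reads between them is uncertain. Their sum avoids this. miR-362-3p shares 9 bases of the same run, CAAGGAUUC, but has another seed, ACACACC.

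Input libraries held 3794799 to 5983577 miRNA counts, MS2 bait libraries 1156261 to 2236535 and PD-L1 bait libraries 672824 to 1237652. The 9 members together gave 2810 to 4305 reads in an input library, 563 to 1163 in an MS2 control library and 326 to 726 in a PD-L1 3'UTR library. Levels are given in CPM, counts per 1000000 counts of the library, whose size was scaled by TMM factors that assume most miRNAs do not change. A floor of 3 counts was worth between 0.676 and 4.02 CPM. Exact intervals and floors below cover counting error only, while the other intervals are of fitted values and include the spread between replicates. Where groups are said not to overlap this is a description, since the share of all miRNAs without overlap was not counted. Across miRNAs, log2 CPM of replicates correlated with r from 0.986 to 0.994 in the input, 0.959 to 0.97 on the MS2 bait and 0.941 to 0.972 on the PD-L1 bait, where the pairs that include replicate 1 had the lower coefficients.

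In the lysate, the cluster was of middling abundance and its members spanned a wide range. miR-532-5p had 410, 341 and 383 CPM in input replicates 1, 2 and 3 (mean 378 CPM ± 34.9, SD, n = 3) and ranked 101st of 408 tested miRNAs. miR-660-5p followed with 149, 254 and 224 CPM (mean 209 CPM ± 53.9). Next came miR-501-3p with 95.6 CPM ± 24.1, miR-500a-3p with 80.5 CPM ± 9.57 and miR-502-3p with 76.4 CPM ± 14.7, whose libraries overlapped and which cannot be ordered. miR-362-5p had 56.1 CPM ± 7.47 and miR-532-3p 15.8 CPM ± 6.07. miR-188-5p, with 3.43 CPM ± 0.398, and miR-362-3p, with 2.23 CPM ± 0.339, rested on 7 to 17 reads per library. The arms of the hairpins were thus unequal in the lysate, where miR-532-3p made up 3.99% ± 1.42 of the reads of its hairpin and miR-362-3p 3.87% ± 0.911.

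**Figure D1:**
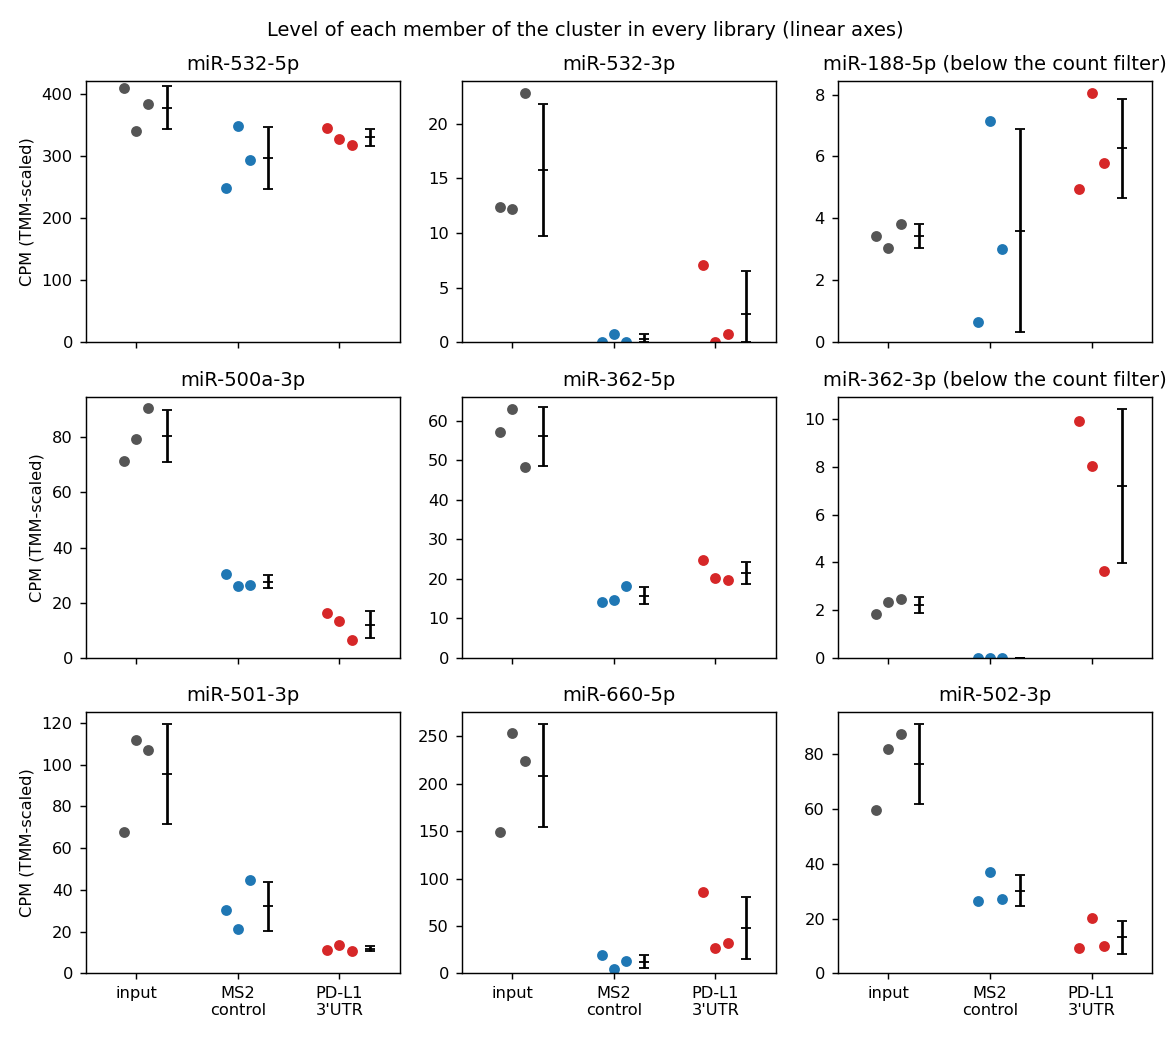
TMM-scaled CPM (linear axes from 0, each panel with its own range) of the 9 members in the input, MS2 control and PD-L1 3'UTR groups. Points are libraries, with replicates 1 to 3 from left to right, and bars are the mean ± SD, drawn no lower than 0. miR-532-5p stays within 249 to 410 CPM in all libraries, while the input points of miR-660-5p, miR-500a-3p, miR-501-3p, miR-502-3p and miR-362-5p lie above every trapped library.

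The sum of the 9 members was 917 CPM ± 73.8 in the input, 419 CPM ± 45.7 on the MS2 bait and 453 CPM ± 54.8 on the PD-L1 bait. The input exceeded the MS2 bait 2.19-fold and the PD-L1 bait 2.02-fold, or 1.42-fold and 1.36-fold by library totals. As sums, the PD-L1 bait held 1.08-fold the MS2 bait. Their make-up was unlike that of the lysate. miR-532-5p took 49.2%, 35.9% and 39.5% of the cluster's reads in the input libraries, 67.2%, 75.7% and 68.9% on the MS2 bait and 67.1%, 74.8% and 78.1% on the PD-L1 bait. The input and trapped libraries did not overlap in this share. The 3 near-identical 3p arms went the other way, miR-500a-3p for example from 8.77% ± 0.509 in the input to 6.70% ± 1.33 on the MS2 bait and 2.61% ± 0.877 on the PD-L1 bait.

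**Figure D2:**
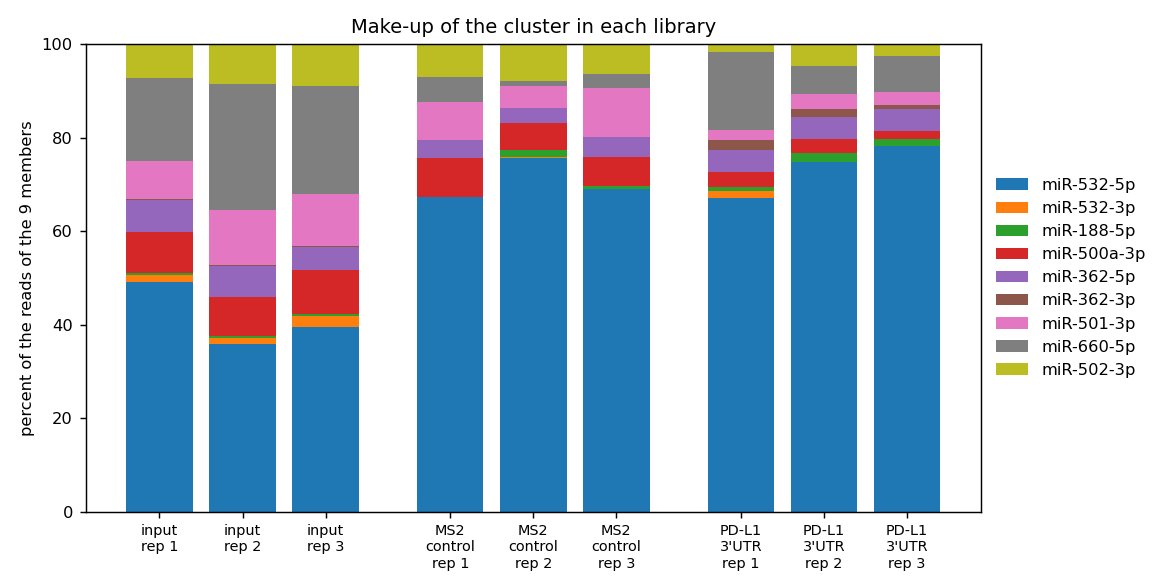
Percent of the reads of the 9 members taken by each of them, in each of the 9 libraries. miR-532-5p fills 35.9% to 49.2% of the input bars and 67.1% to 78.1% of the trapped bars, and miR-660-5p is wider in PD-L1 3'UTR replicate 1 (16.7%) than in replicates 2 (6.13%) and 3 (7.83%).

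The MS2 control against the input shows how the loops and the resin alone sampled the cluster. Of the 9 members, 7 passed the filter on low counts, and by edgeR's quasi-likelihood test at an adjusted p under 0.05, 6 of the 7 fell and 0 rose. Over all 408 tested miRNAs 37.0% were called lower and 32.8% higher, 69.9% in all. The members' median log2 fold change was -1.58, against 0.02 over all tested miRNAs. Scaling by library totals alone moved the median of all miRNAs up by 0.63 here and by 0.57 for PD-L1 bait over input.

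miR-660-5p had the largest of these falls among members that kept over 10 reads in each MS2 control library. It dropped from 149, 254 and 224 CPM in the input to 19.4, 5.16 and 12.9 CPM on the MS2 bait, and the groups lay far apart. The log2 fold change was -4.10 ± 0.56 (SE, adjusted p of 9.68e-05, edgeR), a 17.1-fold lower level. miR-532-3p, the minor arm of its hairpin, had 47, 36 and 101 reads in the input and 0, 2 and 0 on the MS2 bait. Pooled over replicates its level was 44.3-fold lower (95% exact interval 12.1 to 368). Its input libraries were enough to pass the filter, and of the other libraries only PD-L1 3'UTR replicate 1 reached the cutoff. A lower level elsewhere was therefore favoured by the filter.

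The other falls were smaller and alike in size. The values were -1.54 ± 0.29 for miR-500a-3p, -1.58 ± 0.31 for miR-501-3p, -1.33 ± 0.31 for miR-502-3p and -1.84 ± 0.25 for miR-362-5p (adjusted p of 0.000867, 0.00106, 0.00298 and 8.27e-05, edgeR). Summed, the 3 near-identical 3p arms went from 253 CPM ± 46.6 to 90.1 CPM ± 7.35 (-1.49 ± 0.23, adjusted p of 0.000231). The miR-502-3p call was lost with library totals, at -0.71. miR-532-5p had 249, 349 and 294 CPM on the MS2 bait, overlapping the input. Its log2 fold change of -0.35 ± 0.16 did not pass (adjusted p of 0.0824), its 95% interval ran from -0.71 to 0.02, and with library totals the value was 0.28. It was called lower without input replicate 3 (-0.49, adjusted p of 0.0464), MS2 control replicate 2 (-0.46, adjusted p of 0.0386), PD-L1 3'UTR replicate 1 (-0.43, adjusted p of 0.0373) or PD-L1 3'UTR replicate 2 (-0.44, adjusted p of 0.0403).

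The PD-L1 3'UTR against the input gave the same 6 calls, all lower, and 0 members higher, where 32.4% of all tested miRNAs were lower and 34.1% higher (66.4% in all). The comparisons share the input libraries, and the filter again favoured the fall of miR-532-3p. The members' median was -2.40, against 0.04 over all tested miRNAs. miR-501-3p fell from 67.9, 112 and 107 CPM to 11.3, 13.4 and 10.9 CPM, a log2 fold change of -3.02 ± 0.35 (adjusted p of 3.53e-05, edgeR). miR-500a-3p fell by 2.74 on the log2 scale (SE 0.32), miR-502-3p by 2.59 (SE 0.34), miR-660-5p by 2.09 (SE 0.51) and miR-362-5p by 1.38 (SE 0.25), with adjusted p of 4.18e-05, 8.38e-05, 0.00406 and 0.00065. Without PD-L1 3'UTR replicate 1 the value of miR-660-5p was -2.87. miR-532-3p had -2.40 ± 0.82 (adjusted p of 0.0239), but 10 of its 11 PD-L1 3'UTR reads were in replicate 1 and the value was -5.001 without that library. Its call was lost without input replicate 3 (-2.295, adjusted p of 0.0655) or PD-L1 3'UTR replicate 3 (-2.01, adjusted p of 0.0761), and with library totals (-1.82, adjusted p of 0.0717).

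miR-532-5p again overlapped the input, with 345, 327 and 319 CPM in the PD-L1 3'UTR libraries. Its log2 fold change was -0.19 ± 0.16 (95% interval -0.56 to 0.17, adjusted p of 0.313), and with library totals the direction turned and the test passed (0.38, adjusted p of 0.0442).

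The PD-L1 3'UTR against the MS2 control asks what the 3'UTR retained beyond loops and resin. Of the 7 tested members, 1 was called higher and 3 lower. By edgeR's quasi-likelihood test, miR-660-5p rose, miR-500a-3p, miR-501-3p and miR-502-3p fell, and miR-532-5p, miR-532-3p and miR-362-5p did not pass. Over all tested miRNAs 31.4% were called higher and 28.7% lower (60.0% in all). Calls in both directions were therefore about as common among all miRNAs as among the members. The members' median log2 fold change was 0.15, against 0.02 over all.

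miR-660-5p had 19.4, 5.16 and 12.9 CPM on the MS2 bait and 85.7, 26.8 and 31.9 CPM on the PD-L1 bait. No library of one group reached the other, and PD-L1 3'UTR replicate 1 stood well above replicates 2 and 3. The log2 fold change was 2.01 ± 0.55 (adjusted p of 0.00838), a 4.01-fold higher level. Without PD-L1 3'UTR replicate 1 it was 1.34 (adjusted p of 0.0289). This level was still far under the lysate, 209 CPM ± 53.9, so the 3'UTR eluate stood between the background and the input.

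The 3 near-identical 3p arms lay lowest with the 3'UTR bait. miR-500a-3p had 30.4, 26.2 and 26.5 CPM on the MS2 bait and 16.3, 13.4 and 6.53 CPM on the PD-L1 bait (-1.20 ± 0.33, adjusted p of 0.00831). miR-501-3p had 30.4, 21.4 and 44.6 CPM against 11.3, 13.4 and 10.9 CPM (-1.43 ± 0.35, adjusted p of 0.00443). miR-502-3p had 26.5, 36.9 and 27.2 CPM against 9.20, 20.1 and 10.2 CPM (-1.27 ± 0.34, adjusted p of 0.00838). In each of them all PD-L1 3'UTR libraries were under all MS2 control libraries. How many of all tested miRNAs separated in this way was not counted, so this is a description only. As a sum they fell from 90.1 CPM ± 7.35 to 37.1 CPM ± 9.68, a log2 fold change of -1.29 ± 0.24 (adjusted p of 0.000833), which does not depend on how reads were split among them. Each of the 3 calls held when any 1 library was left out.

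miR-532-5p, the most abundant member, differed by a log2 fold change of 0.15 ± 0.16 (adjusted p of 0.451). Its 95% interval, from 0.862-fold to 1.43-fold, ends short of the 4.01-fold of miR-660-5p. miR-362-5p had 14.2, 14.7 and 18.2 CPM on the MS2 bait and 24.8, 20.1 and 19.6 CPM on the PD-L1 bait. Its libraries did not overlap, but the difference of 0.47 ± 0.26 did not pass (adjusted p of 0.143, interval 0.929-fold to 2.05-fold). miR-532-3p had 10, 0 and 1 reads on the PD-L1 bait against 0, 2 and 0, a pooled ratio of 8.38 (95% exact interval 1.83 to 77.8), and its value of 2.86 ± 1.31 (adjusted p of 0.0814) was 0.35 without PD-L1 3'UTR replicate 1. It passed without replicate 2 (3.25, adjusted p of 0.0391) or 3 (3.33, adjusted p of 0.0469) of that group, which leave more weight on replicate 1.

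**Figure D3:**
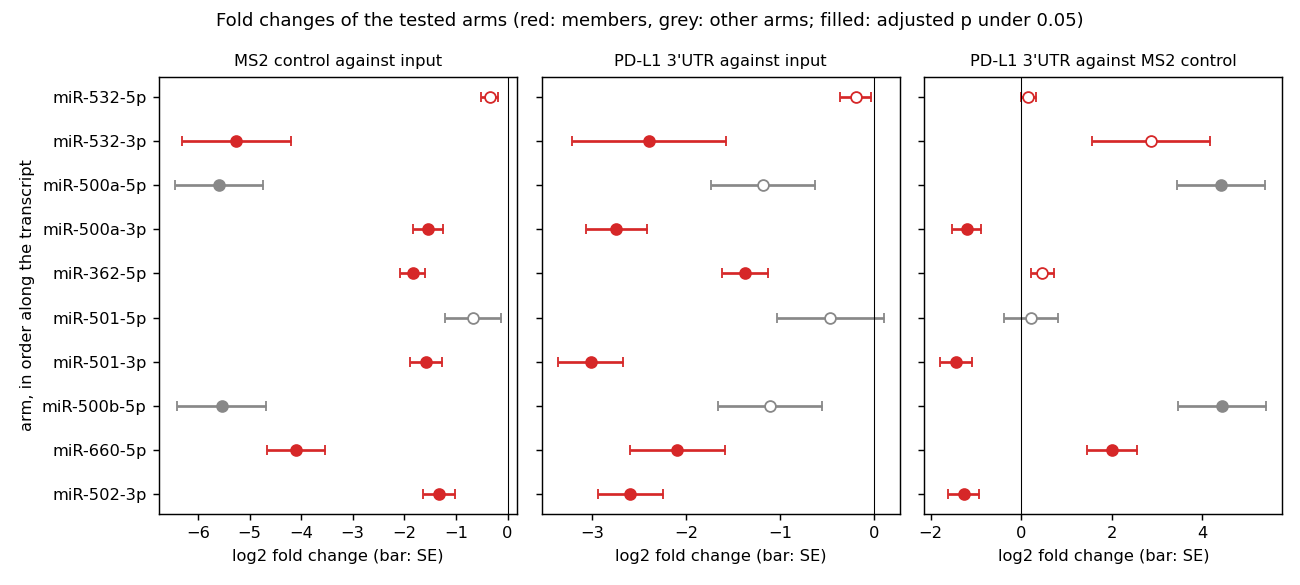
Fitted log2 fold changes with their SE (edgeR) of the 7 tested members (red) and 3 tested other arms (grey), in order along the transcript, in the 3 comparisons. Filled points passed an adjusted p of 0.05. The right panel shows miR-660-5p at 2.01 and miR-500a-3p, miR-501-3p and miR-502-3p between -1.43 and -1.20. Fitted values of miR-532-3p, miR-500a-5p and miR-500b-5p against the MS2 control rest on 1 or 2 reads there.

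Because the members leave one transcript, the ratio of 2 of them within a library is a direct comparison that does not depend on scaling between libraries. Per 1000 reads of miR-532-5p, the first arm of the cluster, miR-660-5p had 364, 745 and 584 reads in the input, 77.9, 14.8 and 43.8 on the MS2 bait and 248, 82.0 and 100 on the PD-L1 bait. The groups did not overlap, and the input lay highest. miR-501-3p had 166, 328 and 280 reads per 1000 in the input, 122, 61.4 and 152 on the MS2 bait and 32.9, 41.0 and 34.2 on the PD-L1 bait, and so its order of the trapped groups was the reverse.

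Ratios were tested with the miR-532-5p count as library size and adjusted over 407 miRNAs. Among the members, 6 of 6 ratios were lower on the MS2 bait than in the input, against 31.7% of all ratios (42.5% were higher, 74.2% in all). On the PD-L1 bait 6 of 6 were lower than in the input, against 28.5% (36.9% higher, 65.4% in all). The 6 include miR-532-3p, whose input libraries carried it through the filter, so its fall was favoured. The counts of 6 depend on the reference. With miR-660-5p in place of miR-532-5p, 0 were lower on either bait and 4 were higher on the MS2 bait. With the sum of the 9 members 3 were lower on each bait. The share over all miRNAs was not counted for these other references. With miR-532-5p as reference, the members' median changes were -1.36 and -2.32, beside 0.37 and 0.23 over all miRNAs. Between the baits, 1 ratio was higher on the PD-L1 bait (27.3% of all) and 3 were lower (30.7% of all, and 58.0% in either direction). The ratio of miR-660-5p changed by 1.75 ± 0.58 (adjusted p of 0.0201, edgeR), and those of miR-500a-3p, miR-501-3p and miR-502-3p by -1.40 ± 0.37, -1.63 ± 0.42 and -1.40 ± 0.37 (adjusted p of 0.00638, 0.0048 and 0.00624). The miR-660-5p call was lost without PD-L1 3'UTR replicate 1 (1.12, adjusted p of 0.0813), MS2 control replicate 2 (1.26, adjusted p of 0.0727) or MS2 control replicate 3 (1.74, adjusted p of 0.0618). The miR-532-3p call on the PD-L1 bait over input was lost without input replicate 2 or 3 or PD-L1 3'UTR replicate 2 or 3 (adjusted p up to 0.113). On the MS2 bait over input, the miR-502-3p call was lost without input replicate 2 (adjusted p of 0.0839), input replicate 3 (0.0709) or MS2 control replicate 3 (0.0623) and with no filter (0.0591), and the miR-501-3p call without input replicate 2 (0.0624).

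The ratio of miR-362-5p to miR-532-5p did not pass between the baits (0.30 ± 0.32, adjusted p of 0.443, 95% interval -0.40 to 1.00).

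In the MIR362 hairpin, the minor 3p arm was not detected in the MS2 bait libraries and was detected with the 3'UTR. miR-362-3p had 7, 7 and 11 reads in the input, 0, 0 and 0 on the MS2 bait and 14, 6 and 5 on the PD-L1 bait, and did not pass the filter on low counts. On the PD-L1 bait its level exceeded the MS2 bait, 12.7-fold when the MS2 control group was set to a floor of 3 counts. The exact interval of this ratio began lower, at 9.59-fold. The MS2 control was 4.01-fold lower than the input by the same floor, and the exact interval began at 3.03-fold. The PD-L1 bait libraries, at 9.91, 8.05 and 3.63 CPM, were above those of the input, at 1.84, 2.36 and 2.48 CPM. A fit without the filter did not call that difference (1.40 ± 0.89, adjusted p of 0.303, edgeR), and a fit of these 2 groups alone did (1.55, adjusted p of 0.0176, edgeR). In the fit of 2 groups miR-362-3p passed the filter through its PD-L1 bait libraries alone, so a higher level there was favoured.

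Its share of the reads of the hairpin was 3.12%, 3.61% and 4.89% in the input, 0% in each MS2 control library and 28.6%, 28.6% and 15.6% on the PD-L1 bait. Pooled, these were 25 of 643 reads (95% exact interval 2.53% to 5.69%), 0 of 83 reads, which allows a share of up to 3.61% by the floor of 3 counts and 4.35% by the exact interval, a bound above the pooled input share of 3.89%, and 25 of 102 reads (16.5% to 34.0%). The 3 groups did not overlap. With the miR-362-5p count as library size and no filter, the ratio of the arms rose by 2.97 ± 1.01 on the log2 scale over the input (adjusted p over 1499 miRNAs of 0.0146, edgeR). It also passed on the PD-L1 bait over the MS2 bait (adjusted p of 0.00105), and did not pass on the MS2 bait over input (adjusted p of 0.117). Leaving out 1 library at a time, 5 of 9 fits lost the call, namely those missing an input replicate (1, 2 or 3) or PD-L1 3'UTR replicate 1 or 2, with adjusted p up to 0.104. In the MIR532 hairpin the 3p arm was instead lower after trapping, at 2.93%, 3.44% and 5.60% in the input, 0%, 0.227% and 0% on the MS2 bait and 2.01%, 0% and 0.227% on the PD-L1 bait.

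**Figure D4:**
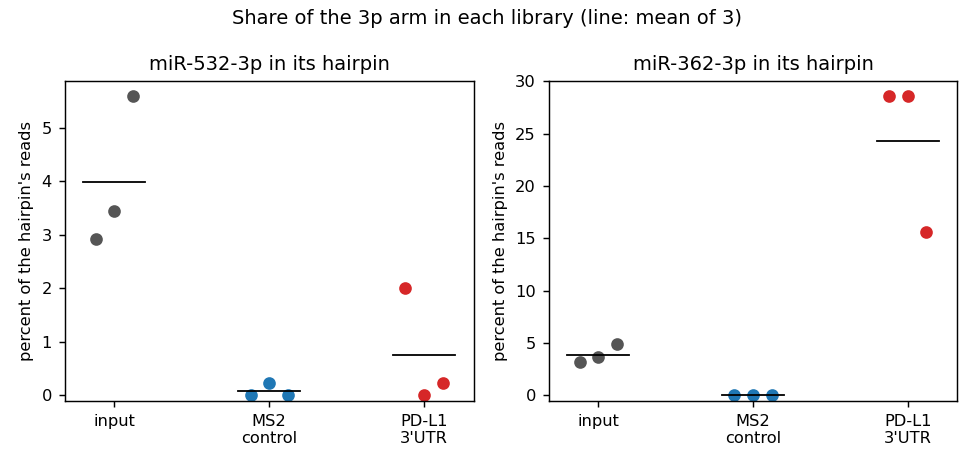
Percent of the reads of the hairpin taken by the 3p arm, for miR-532-3p and miR-362-3p, in each library (points) with the mean of 3 (line). miR-362-3p takes 15.6% to 28.6% in the PD-L1 3'UTR libraries, above the 3.12% to 4.89% of the input, while miR-532-3p is highest in the input, at 2.93% to 5.60%.

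miR-188-5p, from the second hairpin, also stayed under the filter. Its reads were 13, 9 and 17 in the input, 1, 18 and 4 on the MS2 bait and 7, 6 and 8 on the PD-L1 bait, and the groups overlapped after scaling between the MS2 control and each of the others. Without the filter its log2 differences on the PD-L1 bait were 0.66 ± 0.80 relative to the MS2 bait and 0.58 ± 0.77 relative to input (adjusted p of 0.64 and 0.655, edgeR), so a change was not detectable at this depth.

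Of the 7 other arms of the same hairpins, 3 passed the filter. miR-500a-5p and miR-500b-5p had 30, 41 and 59 and 48, 28 and 52 reads in the input, 1, 0 and 0 each on the MS2 bait, and 4, 4 and 10 and 5, 2 and 12 on the PD-L1 bait. The sequence of miR-500b-5p lies whole within that of miR-500a-5p, as these lines show, so reads of the overlap cannot be given to either.
miR-500a-5p: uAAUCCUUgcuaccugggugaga
miR-500b-5p: aAUCCUUGcuaccugggu
Both rose over the MS2 control (adjusted p of 0.00251 each, edgeR), and their sum went from 0.431 CPM ± 0.747 to 10.1 CPM ± 5.12, with an adjusted p of 0.000762. Pooled ratios were 27.4 (95% exact interval 4.33 to 1140) and 29.0 (4.60 to 1200). Against the input neither passed on the PD-L1 bait (adjusted p of 0.0842 and 0.103, edgeR). Both were lower on the MS2 bait (adjusted p of 0.000202 and 0.000235, edgeR). Each passed the filter through input libraries and PD-L1 3'UTR replicate 3, and through no MS2 control library. A lower level on the MS2 bait than in either other group was therefore favoured by the filter, which includes the rise between the baits. Fitted with the PD-L1 bait and input libraries alone, both were called lower than the input (-1.27 and -1.20, adjusted p of 0.0301 and 0.0393), as was miR-500b-5p without PD-L1 3'UTR replicate 3 (-1.89, adjusted p of 0.041).

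The third, miR-501-5p, had 15.9 CPM ± 3.28 in the input, 9.67 CPM ± 4.72 on the MS2 bait and 12.2 CPM ± 8.98 on the PD-L1 bait, and passed in no comparison. In MIR501 the 3p arm fell between the baits and the 5p arm did not pass, and the difference between these arms was not tested. miR-500b-3p had 8, 8 and 14 reads in the input, 5, 0 and 7 on the MS2 bait and 0 in each PD-L1 3'UTR library. Set to the floor of 3 counts, the PD-L1 3'UTR group was 2.62-fold lower than the MS2 control. The exact interval of that difference began at 1.82-fold. miR-660-3p and miR-502-5p had at most 2 and 21 reads in any library, and miR-188-3p had 0 in all.

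Seed matches of the arms were sought in the reference 3'UTR of CD274 (GENCODE transcript CD274-202, 2692 bases), read in the sense strand and counted from its first base. How far the bait covers this 3'UTR was not analysed here. A match is given as an 8mer (seed bases 2 to 8 and an A opposite base 1), a 7mer-m8 (bases 2 to 8), a 7mer-A1 (bases 2 to 7 with the A) or a 6mer (bases 2 to 7). Sites are shown with the bases upstream, the match in capitals, for the members whose levels differed between the baits or held a match of at least 7 bases.
miR-362-5p, 7mer-A1 at 263 to 269: cctgtgacagggagaAAGGATAc
miR-532-3p, 7mer-A1 at 1488 to 1494: attcaaaagatcccaTGGGAGAt
miR-532-3p, 7mer-A1 at 2225 to 2231: gagattcagatgcccTGGGAGAt
miR-501-3p and miR-502-3p, 6mer at 2361 to 2366: ttatctgtttgtacatGTGCATt
miR-500a-3p, 6mer at 1933 to 1938: cccatgggctctccagGGTGCAc

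Of the 8 members with a sequence, miR-532-3p (2 sites) and miR-362-5p (1 site) had a match of at least 7 bases. Such a match to miR-532-3p was present in 42.4% of 2780 other 3'UTRs of 2153 to 3365 bases, and one to miR-362-5p in 25.8%. miR-500a-3p, miR-501-3p and miR-502-3p, the arms that fell, had 1 6mer each. A match of at least 6 bases was present in 44.4% of the other 3'UTRs for miR-500a-3p and in 45.9% for the seed that miR-501-3p and miR-502-3p share. miR-532-5p and miR-188-5p had 1 6mer each (55.4% and 47.3%). miR-362-3p, which was at 0 on the MS2 bait and present in each PD-L1 3'UTR library, had no match of 6 bases or more (64.2%). Among the other arms, miR-501-5p had an 8mer from 262 to 269 that contains the miR-362-5p site, and neither passed between the baits, while of the pair that rose and whose reads cannot be separated, miR-500a-5p had no match of 6 bases or more (54.6%) and miR-500b-5p had the same 7mer-A1 as miR-362-5p (25.8%). Matches of at least 7 bases were also held by miR-660-3p (2 sites, 46.6%) and miR-188-3p (1 site, 36.3%), which had few or no reads. miR-660-5p, the member that rose, has no sequence here and its matches were not sought. All matches are letters in a reference sequence and describe no binding.

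Outside the cluster, the miRNAs whose log2 CPM followed miR-660-5p most closely over the 9 libraries were miR-361-5p (Pearson's r of 0.957), miR-139-5p (0.947) and miR-378d (0.945). miR-361-5p had 646 CPM in the input, 92.0 CPM on the MS2 bait and 198 CPM on the PD-L1 bait, the same order of groups. For miR-532-5p they were miR-193b-3p (0.891), miR-181a-3p (0.865) and miR-671-5p (0.835). In the input, MS2 bait and PD-L1 bait these had 23.4, 2.595 and 9.93 CPM, 162, 40.8 and 68.1 CPM, and 113, 23.7 and 39.3 CPM. They shared the order of groups with miR-532-5p (378, 297 and 330 CPM) but differed far more between them. These coefficients are descriptions over libraries that share their scaling and group differences.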

How the data were processed

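Small RNA of 9 ES-2 libraries was sequenced single-end, 3 each of input, MS2 control and PD-L1 3'UTR, grouped by sample title. The deposited table holds raw counts per mature miRNA locus. Per the labels, the authors used cutadapt 1.18, Bowtie2 2.2.6, hg38 and featureCounts 1.6.3, and the methods name miRBase. How reads matching several loci were counted is not given in the sources used here.

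Counts were summed over the loci of a name and tested with edgeR 4.0.16 in R 4.3.3 (filterByExpr, TMM, 1 model of 3 group means over all 9 libraries, glmQLFTest, two-sided), adjusted by Benjamini-Hochberg over 408 miRNAs at 0.05. Ratios used the count of a reference member as library size. The arm ratio of MIR362 was planned with the filter, which miR-362-3p did not pass, so it was fitted over 1500 names, less the reference. The SE is the log2 fold change over the square root of F. Intervals of 95% for low counts and shares are exact (Clopper-Pearson).

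Members, lists and the naming rule (all members, other arms past the filter, and the 3 closest miRNAs of the 2 most abundant members, by log2 of CPM plus 0.5) were chosen with earlier results of these data known. The fits were tested on simulated data, where fits of levels missed many of the smaller changes and fits of ratios nearly all. Alternatives were other scalings (DESeq2 size factors, library totals), DESeq2 1.42.0, other filters and references, the compared groups alone, separate loci, summed near-identical arms, a replicate block, and leaving out each library; the summed miR-500a-5p and miR-500b-5p and the unfiltered arm ratio were added after the data were seen. Total counts per library ran from 672824 to 5983577, so the PD-L1 3'UTR libraries are the least precise.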

Additional observations from a re-analysis of the deposited data

How the results depend on the processing

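Of 1119 values recomputed under the alternatives, 1028 kept their direction and side of the threshold, or stayed near the value in the report. The cause of the other values was not tested. With library totals, miR-532-5p turned to 0.3771 (PD-L1 3'UTR over input, so 1 member higher) and 0.2773 (MS2 control over input), miR-501-5p turned to 0.1016 (PD-L1 3'UTR over input), and the summed levels were 694.9, 489.4 and 509.4 CPM in input, MS2 control and PD-L1 3'UTR. With no filter, 3 members were higher over the MS2 control, by level and by ratio, and the share over all miRNAs is not given for these fits. By level, 201 miRNAs, not 132, were then lower on the PD-L1 bait than in the input. Fitting the compared groups alone gave 1 member (miR-362-3p) higher than the input, where it passed the filter through its PD-L1 3'UTR libraries alone.

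With miR-660-5p as the reference, 0 ratios were higher between the baits, 0 were lower than the input on either bait, and 4 were higher in MS2 control over input, where miR-500a-3p, miR-501-3p, miR-502-3p and miR-362-5p turned to 2.85, 2.732, 3.241 and 2.539. The miR-362-5p ratio also turned to -1.609 between the baits and 0.9301 for PD-L1 3'UTR over input. With the sum of the 9 members as reference, 3 ratios were lower than the input on each bait. For these references the share over all miRNAs was not counted, so the counts describe the members alone.

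Leaving out each library gave 1 to 3 members higher over the MS2 control by level and 0 to 2 by ratio, 0 to 1 higher than the input by level and by ratio, an arm ratio of 2.777 to 3.266, and -0.3969 to 0.7177 for miR-501-5p between the baits, negative without PD-L1 3'UTR replicate 2. The count over the MS2 control by level was 1 without PD-L1 3'UTR replicate 1, 3 without its replicate 3 and 2 without any other single library. Over all miRNAs, 118 to 138 were higher over the MS2 control in these fits, and 116 to 154 were higher than the input on the PD-L1 bait. The member higher than the input by level appeared without MS2 control replicate 1 or 2 or PD-L1 3'UTR replicate 3, and by ratio also without MS2 control replicate 3. It was miR-362-3p, which passed the filter in these fits through PD-L1 3'UTR libraries alone. The ratio count of 0 came without PD-L1 3'UTR replicate 1.

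Same-numbered libraries deviated with r from -0.205 to 0.121, so no pairing by number was seen, which does not show that the samples were unpaired. With the replicate block, all 69 values kept their calls, with 126 miRNAs higher and 117 lower between the baits and an arm ratio of 2.937 (adjusted p of 0.0451, edgeR). Members with under 20 reads per library are limited by depth.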
